A study of Homo sapiens with 5 samples.

Results

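The regions precipitated by an ATF3 antibody from unstressed HCT116 cells were set against those the same antibody gave in cells without a functional *ATF3* gene. The members were the peaks of 2 deposited lists, 33966 from ATF3-WT cells (the library ATF3-Ctrl) and 2231 from ATF3-KO cells, together 36197 of the 123989 regions of the 5 libraries in the series. Peaks of the 2 lists were shared when they overlapped by 1 bp or more, and the peaks are called ATF3-Ctrl only, shared and ATF3-KO only. Of the ATF3-Ctrl peaks, 1829 (5.38%, 95% Wilson interval 5.15% to 5.63%) were shared and 32137 were not, and 1828 of the ATF3-KO peaks (81.9%, 80.3% to 83.5%) were shared and 403 were not. The sites in the knockout list were mostly promoter peaks or peaks with a repeat mark. Of its 2149 peaks on the main chromosomes (1 to 22, X and Y), 1270 (59.1%) were promoter peaks, with the centre 2 kb or less from a protein-coding gene's TSS, and 1789 (83.2%) either lay there or bore a repeat mark, defined below.

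ATF3 is a basic leucine zipper (bZIP) protein of the ATF/CREB family, present at low levels in unstressed cells and induced by many kinds of stress. It binds DNA as a dimer, with itself or with other bZIP proteins such as the JUN, ATF4 and C/EBP proteins, at the ATF/CRE element, at the shorter AP-1 element and at composite elements that join part of an ATF site to part of a C/EBP site. An antibody can also precipitate chromatin that does not carry its target, and a line that lacks the target shows which regions do so.

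HCT116 is a human colon cancer line. ATF3-WT and ATF3-KO cells both received DMSO, the solvent of camptothecin in other libraries of the series, for 4 h. The knockout line had been made by recombinant AAV and homologous recombination, with both *ATF3* alleles targeted at exon 3 by the same strategy, in which Cre removal of the selection gene leaves a small deletion. Cells were crosslinked with DSG at 1 mM for 45 min and then with 1% formaldehyde for 10 min. Each condition was 1 library from 1 cell line, so intervals cover counting error only, no test between genotypes was possible, and a difference between cultures or between lines cannot be told apart from the loss of ATF3. A deposited peak list holds no measure of the targeted gene's protein or RNA, and reads over the deletion were not analysed here, so the genotype was not checked here.

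The libraries were of like depth, 12947516 tags in ATF3-Ctrl and 12820520 in ATF3-KO, with 5.60% and 0.56% of the tags in peaks. Each peak has a score, in tags as the peak caller counted them, and a normalized tag count scaled to a library of 10000000 tags. The 2 columns are not the same measure, as the count corresponded to as few as 0.70 tags per unit of score at an ATF3-Ctrl only peak. A single tag counted 0.772 in ATF3-Ctrl and, in ATF3-KO, 0.780. The lowest score listed was 9 for ATF3-Ctrl and 11 for ATF3-KO, with peaks 126 bp and 198 bp wide. A site without an ATF3-KO peak was not necessarily free of signal. It may have scored under 11, been removed by the authors' local or clonal filters, or lain within 396 bp of another knockout peak, the least distance the peak caller allowed. The local filter took 1278 of 3540 putative peaks from the knockout list.

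The sequences that separated the classes are shown first, from GRCh37 (hg19). An AP-1 core (TGACTCA, which is TGAGTCA on the other strand), the ATF/CRE core TGACGTCA and the composite core TGATGCAA (TTGCATCA on the other strand) are in capitals wherever an exact match occurs. These strings do not contain each other, and matches were sought on both strands. The first set is ATF3-Ctrl only peaks, chosen among the highest scores with an AP-1 or a composite core. The composite core was looked at more closely, and its examples were chosen, after values had been seen.
STK40, upstream of the TSS, chr1:36852172-36852298: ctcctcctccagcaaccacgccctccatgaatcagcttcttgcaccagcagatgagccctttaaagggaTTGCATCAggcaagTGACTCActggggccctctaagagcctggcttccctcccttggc
FGFRL1, downstream of the gene, chr4:1037556-1037682: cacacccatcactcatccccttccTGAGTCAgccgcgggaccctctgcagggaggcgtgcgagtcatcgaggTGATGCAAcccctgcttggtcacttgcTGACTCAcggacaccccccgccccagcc
ATF3 promoter, the part of the peak outside UTRs, chr1:212782019-212782102: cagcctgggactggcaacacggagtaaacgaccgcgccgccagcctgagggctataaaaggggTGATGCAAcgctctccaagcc
HERPUD1, upstream of the TSS, chr16:56965822-56965948: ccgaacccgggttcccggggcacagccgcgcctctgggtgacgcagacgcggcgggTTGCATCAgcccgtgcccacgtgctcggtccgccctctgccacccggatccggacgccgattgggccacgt
The next set holds the ATF/CRE core, at 2 ATF3-Ctrl only promoter peaks and at the 3 highest-scoring ATF3-KO promoter peaks that had this core, a set chosen after values had been seen.
ISG15 promoter, ATF3-Ctrl only, chr1:936219-936345: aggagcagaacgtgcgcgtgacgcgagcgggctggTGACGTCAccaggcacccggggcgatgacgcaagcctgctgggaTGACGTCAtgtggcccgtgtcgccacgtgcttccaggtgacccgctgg
ARG2 promoter, ATF3-Ctrl only, chr14:68086415-68086541: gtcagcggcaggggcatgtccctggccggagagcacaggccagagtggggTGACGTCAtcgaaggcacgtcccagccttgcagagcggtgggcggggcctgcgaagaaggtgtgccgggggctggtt
CTU2 promoter, part of an ATF3-KO peak, chr16:88772805-88772834: ctgcgccgcgcTGACGTCAtcgtagggcgc
DDX51 promoter, part of an ATF3-KO peak, chr12:132628865-132629001: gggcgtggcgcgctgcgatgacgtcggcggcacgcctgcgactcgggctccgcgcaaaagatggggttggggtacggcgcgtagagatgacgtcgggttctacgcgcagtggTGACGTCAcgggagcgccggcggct
MAPKAPK5 promoter, part of an ATF3-KO peak, chr12:112279713-112279816: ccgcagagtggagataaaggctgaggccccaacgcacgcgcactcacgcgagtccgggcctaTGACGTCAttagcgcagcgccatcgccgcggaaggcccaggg
The last pair shows a shared promoter and a pericentromeric region, neither with any of these cores.
GZF1 promoter, shared, chr20:23342564-23342690: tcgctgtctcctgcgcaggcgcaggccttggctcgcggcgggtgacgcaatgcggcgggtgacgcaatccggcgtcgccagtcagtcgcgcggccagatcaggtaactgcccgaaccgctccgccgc
Intergenic, nearest TSS FAM72B, beside an ATF3-KO peak, chr1:121484752-121484878: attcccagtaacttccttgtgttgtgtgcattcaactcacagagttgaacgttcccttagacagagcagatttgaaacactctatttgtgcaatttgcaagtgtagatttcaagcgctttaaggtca

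Peaks of high score were the most often shared, and promoters far more often than other sites. In 10 groups of like size ranked by score, 33 of the 3396 peaks in the lowest group (0.972%) overlapped an ATF3-KO peak, and 699 of 3397 (20.6%, 19.3% to 22%) did in the highest. On the main chromosomes, 1127 of 8679 promoter peaks (13.0%, 12.3% to 13.7%) were shared, against 636 of 25002 distal peaks (2.54%, 2.36% to 2.75%), those with their centre over 2 kb from a TSS. At like score the gap remained. At a score of 20 to 29, 23% of promoter peaks and 3.62% of distal peaks were shared, and at 50 to 99 the shares were 58.6% (215 of 367) and 10.9% (100 of 919). The promoter share did not keep rising, as 29 of 70 promoter peaks with a score of 100 or more (41.4%, 30.6% to 53.1%) were shared. Part of the rise with score is set by the thresholds, since 9215 ATF3-Ctrl peaks (27.1%) scored under 11, the lowest score the knockout list could hold, and 104 of these were shared.

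**Figure D1:**
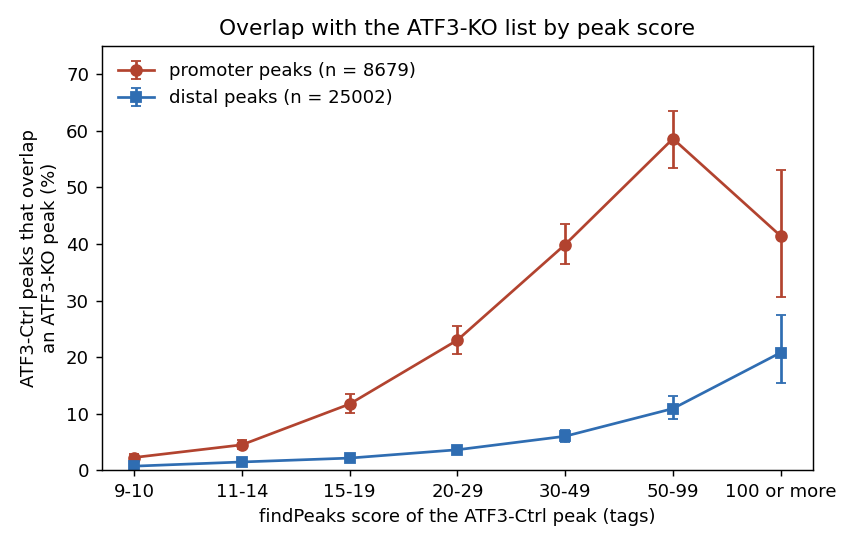
The horizontal axis gives bands of findPeaks score of the ATF3-Ctrl peaks and the vertical axis the percentage that overlapped an ATF3-KO peak, with 95% Wilson intervals (1 library each). Promoter peaks lay above distal peaks in every band, with 58.6% against 10.9% at scores of 50 to 99, and the promoter share was 41.4% at 100 or more.

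The share also rose with the normalized tag count. Under a count of 10, 1.40% of the ATF3-Ctrl peaks were shared, at 50 to 100 it was 26.3%, and at 200 or more it was 32 of 76 (42.1%, 31.6% to 53.3%). In that highest band 5 of 14 promoter peaks (35.7%, 16.3% to 61.2%) and 27 of 62 distal peaks (43.5%, 31.9% to 55.9%) were shared, so promoters did not stand higher there. The focus ratio, the fraction of a peak's tags that lie on the strand and side expected around its centre, ordered the peaks less. In 10 groups ranked by it, the lowest (0.389 to 0.647) had 6.30% shared, a middle group (0.800 to 0.825) 3.39% and the highest (0.914 to 0.995) 8.24%. Median focus ratios were 0.800 in ATF3-Ctrl only peaks and 0.818 in shared peaks on the ATF3-Ctrl side. In promoters these medians were 0.765 and 0.824, and in distal peaks the order was the other way, with 0.812 and 0.800. In the knockout list they were 0.768 in shared peaks and 0.727 in ATF3-KO only peaks.

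Sharing was concentrated at the TSS itself. Of the 4241 ATF3-Ctrl peaks centred within 100 bp of a TSS, 899 (21.2%) were shared, and the share fell to 7.92% at 100 to 500 bp and to 1.86% at 500 to 2000 bp. With a score of at least 20, 647 of 1256 peaks within 100 bp of a TSS (51.5%) were shared, against 4.52% at 500 to 2000 bp and 3.25% at 2 to 10 kb. The share was higher again beyond 100 kb from any TSS, where 339 of 6205 peaks (5.46%) were shared. Shared peaks thus had a median distance of 92.0 bp to a TSS and ATF3-Ctrl only peaks 20700 bp, and 51.0% against 10.5% were centred within 100 bp. Over all peaks the median GC content was 64.6% in shared and 51.2% in ATF3-Ctrl only peaks. Among distal peaks alone the order was the other way, with 44.9% and 48.8%. Among promoter peaks, 16.9% were shared at a GC content of 70% or more and 1.54% (14 of 911) at 40% to 50%. Distal peaks were shared in 5.97% of cases under 40% GC, 1.31% at 50% to 60% and 9.19% at 70% or more. The part of GC content in the sharing was not tested.

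The binding cores separated the classes at high score. At a score of 50 or more, 58 of 72 promoter peaks with the ATF/CRE core (80.6%, 70.0% to 88.0%) overlapped an ATF3-KO peak. Of the promoter peaks at that score with an AP-1 core, 7 of 31 did (22.6%, 11.4% to 39.8%), and with the composite core 5 of 67 (7.46%, 3.23% to 16.3%). With none of these cores it was 174 of 271 (64.2%, 58.3% to 69.7%). The intervals of the ATF/CRE core and of peaks without a core did not meet, and both lay above that of the composite core. A peak with several of the cores is counted under each.

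Distal sites showed the same order of cores. At a score of 50 or more, 11 of 16 distal peaks with the ATF/CRE core (68.8%, 44.4% to 85.8%) were shared, against 13 of 422 with an AP-1 core (3.08%) and 1 of 233 with the composite core (0.429%, 0.0758% to 2.39%). Over all scores, 43 of 9529 distal peaks with an AP-1 core (0.451%) and 1 of 4134 with the composite core (0.0242%) were shared. Distal peaks with none of these cores were shared in 572 of 11486 cases (4.98%).

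In promoters the higher share of the ATF/CRE core held only at a score of 50 or more. At 9 to 14, 0 of 112 promoter peaks with the ATF/CRE core were shared (upper bound 3.32%), against 3.97% (3.42% to 4.60%) of promoter peaks without a core. At 15 to 29, 14 of 175 with the core were shared (4.83% to 13.0%) and 21.0% of those without a core (19.2% to 22.8%), and at 30 to 49 the shares were 41.3% and 46.9%, with overlapping intervals. Below 50, promoter peaks with the core were thus shared no more often than those without one.

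**Figure D2:**
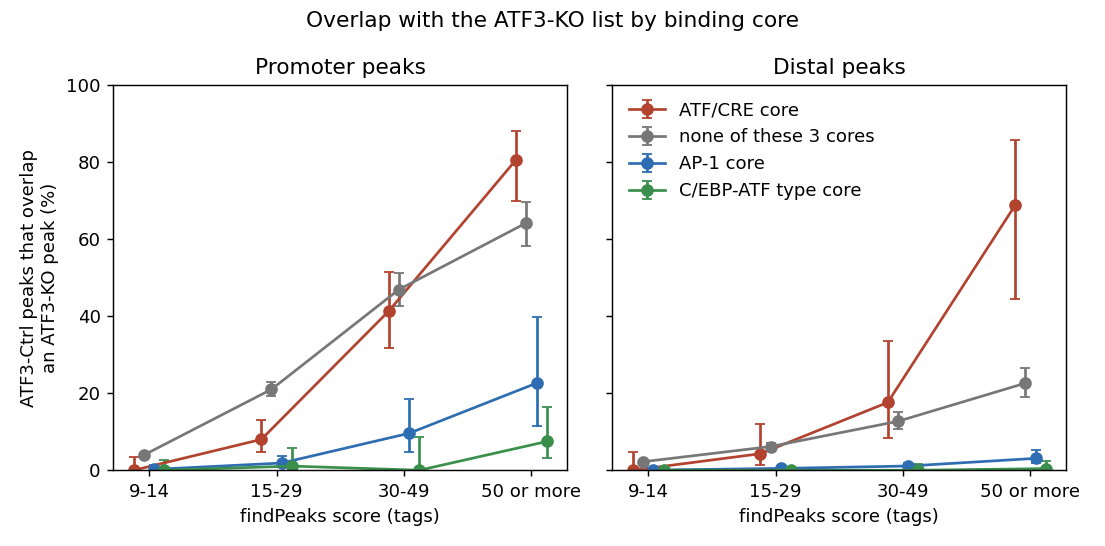
The horizontal axis gives bands of findPeaks score and the vertical axis the percentage of ATF3-Ctrl peaks that overlapped an ATF3-KO peak, with 95% Wilson intervals, for promoter peaks on the left and distal peaks on the right. Lines are peaks with an exact ATF/CRE core, an AP-1 core, the composite C/EBP-ATF type core or none of these, and at scores of 50 or more the ATF/CRE core stood at 80.6% of promoter peaks and the composite core at 7.46%, while below 50 the promoter line of the ATF/CRE core lay under that of peaks without a core.

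Read from the sequence side, AP-1 and composite cores were far more frequent in ATF3-Ctrl only peaks than in shared peaks. An AP-1 core was present in 38.9% of 24366 distal ATF3-Ctrl only peaks, against 2.20% of windows of the same width 1000 bp to each side, and in 6.76% (5.06% to 8.98%) of 636 shared distal peaks, against 1.57% of the windows beside those. In promoters it was present in 11.9% of 7552 ATF3-Ctrl only peaks and in 1.95% of 1127 shared peaks, with 1.54% and 1.11% in the windows beside them. The composite core fell the same way, with 17% of distal ATF3-Ctrl only peaks and 0.157% of shared ones. It was the most frequent of the 3 cores in the highest-scoring ATF3-Ctrl only peaks, at 25 of 41 promoter peaks (61.0%) and 72 of 137 distal peaks (52.6%) with a score of 100 or more.

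The ATF/CRE core depended on the score. Over all scores it was present in 4.52% of promoter ATF3-Ctrl only peaks and in 9.76% (8.16% to 11.6%) of shared promoter peaks, with 0.159% and 0 in the windows beside them. At an ATF3-Ctrl score of 15 to 19 it was rarer in shared than in ATF3-Ctrl only promoter peaks (1.18%, 0.325% to 4.21%, against 6.12%, 4.93% to 7.58%), and at 20 to 29 the shares were 4.69% and 9.66%. At 30 to 49 they were 13.2% and 12.5%, and at 50 to 99 the order was the other way, with 24.2% (18.9% to 30.3%) of shared and 8.55% (5.07% to 14.1%) of ATF3-Ctrl only promoter peaks. Within the knockout list its share was higher at higher scores, from 27 of 635 promoter peaks (4.25%) at 11 to 14 to 41 of 232 (17.7%, 13.3% to 23.1%) at 20 to 29, with 12 of 96 (12.5%) at 30 to 49 and 6 of 23 (26.1%) at 50 to 99. None of the 143 promoter and 243 distal ATF3-KO only peaks held it, which allows upper bounds of 2.62% and 1.56%.

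Of the strings of other promoter factors searched, some were more frequent in shared than in ATF3-Ctrl only promoter peaks, over all scores. The ETS core CCGGAAGT was present in 7.81% and 4.05% of them, the NRF1-type string GCGCATGC in 5.24% and 2.44%, and the YY1-type string AAGATGGC in 3.90% and 1.68%. The GC box GGGCGGGG differed less, at 16.8% and 14.1%, and the E-box CACGTG was present in 8.78% and 7.19%. Windows beside the ATF3-Ctrl only peaks held these strings (the first 3, the GC box and the E-box, in that order) in 0.238%, 0.285%, 0.523%, 3.11% and 1.77% of cases. Other strings were equal or less frequent in shared promoter peaks, with TCGCGAGA at 1.24% and 1.11%, the CCAAT-box string CCAATCAG at 1.15% and 1.75%, CAGGGGGC at 2.04% and 2.52%, and GGAATGT at 0.532% and 1.56%. The match of a string is a description of the reference and not of a bound factor.

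Where both lists had a peak, the level in the knockout was usually lower. Over the 1829 shared peaks the median normalized tag count was 23.2 in ATF3-Ctrl against 12.5 in ATF3-KO, and the median log2 ratio of ATF3-KO to ATF3-Ctrl was -0.59 (quartiles -1.25 and -0.11). The ratio was above 0 at 405 sites (22.1%). The exact 95% interval of the single site's ratio lay wholly below 0 at 734 sites and wholly above 0 at 43. Centres of paired peaks were a median of 20 bp apart. The set holds only sites with a knockout score of 11 or more, which limits how low the ratio can be at sites of low ATF3-Ctrl score. For promoters with an ATF3-Ctrl score under 20 the median was -0.12 and the lowest ratio -1.14.

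The ratio was low at promoters of high score and at shared sites with a bZIP core. At the 244 shared promoter peaks with an ATF3-Ctrl score of 50 or more, the median log2 ratio was -1.53 and the interval lay below 0 at 237. For the 110 shared promoter peaks with the ATF/CRE core it was -1.56, and 99 of them (90.0%) had an interval below 0. The knockout level at these 110 was a median of 14.8 against 47.5 in ATF3-Ctrl. The 1017 shared promoter peaks without this core had a lower median ATF3-Ctrl count, 20.9, and a median log2 ratio of -0.76. The part of the core apart from the score was not tested. The 43 shared distal peaks with an AP-1 core had a median of -1.46. At the 251 shared peaks within 1 Mb of a long run of unsequenced bases the median was -0.17, and at the 216 of low complexity it was -0.11.

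**Figure D3:**
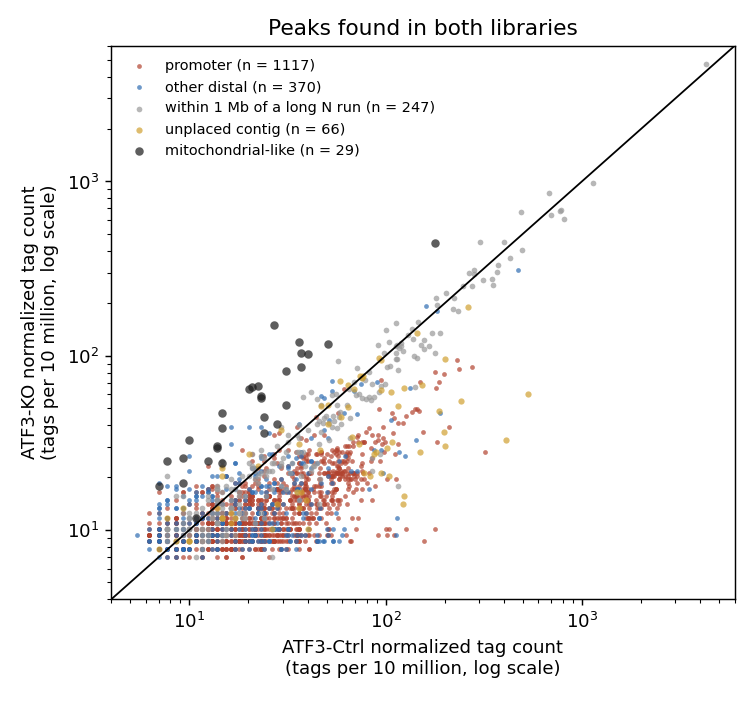
Each point is a shared peak, with its ATF3-Ctrl normalized tag count on the horizontal axis and that of the highest-scoring overlapping ATF3-KO peak on the vertical axis, both per 10000000 tags on log scales, and the line marks equal levels. Promoter peaks lay mostly below the line (median log2 ratio -0.87), peaks near long N runs close to it, and all 29 mitochondrial-like peaks above it.

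The strongest promoter peaks of the knockout described here were all ATF3-Ctrl peaks as well. The highest lay within 2 kb of the starts of *ANAPC2*, a subunit gene of the anaphase-promoting complex, and *SSNA1*, with a score of 94 in ATF3-KO and 158 in ATF3-Ctrl and normalized tag counts of 94.4 (78.3 to 113) and 232 (log2 ratio -1.30, -1.61 to -0.99). The peak at *GATC*, for a subunit of a mitochondrial amidotransferase, and *TRIAP1* had counts of 86.6 and 274 (log2 ratio -1.66). The site at *CTU2*, a tRNA thiolation enzyme, and *RNF166* had 83.5 and 236 (log2 ratio -1.50). In each of these the knockout level was well under that of ATF3-Ctrl, and each lay near the starts of 2 genes.

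Most of the others described here were of the same kind. The site at *DDX51*, an RNA helicase, and *NOC4L* had counts of 70.2 in ATF3-KO and 149 in ATF3-Ctrl, and the *MAPKAPK5* promoter, of a MAP kinase-activated kinase, had 81.1 and 179. *TRMT61B*, a tRNA methyltransferase gene, had 65.5 and 180. *TBL3* had 78.0 and 198, and *CWC25*, a splicing factor gene, 70.2 and 188. These fell by 1.09 to 1.46 on the log2 scale. At *RABEP1*, for an endosomal effector protein, the scores were 79 and 88, with a log2 ratio of -0.39 (-0.79 to 0.01). That interval reached 0, so the deposited counts there did not differ beyond counting error, with no correction for peak width. Of these promoters, those of *CTU2*, *DDX51* and *MAPKAPK5* held the ATF/CRE core, as printed above.

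Among shared peaks with an ATF3-Ctrl score of at least 20, the lowest ratio was at the *ZNF706* promoter, with 157 in ATF3-Ctrl and 8.6 in ATF3-KO (log2 ratio -4.19, -5.22 to -3.32). At *NARS1*, the asparaginyl-tRNA synthetase gene, the counts were 178 and 10.1, and at *MTHFD1L*, of mitochondrial folate metabolism, 127 and 10.1 (log2 ratios -4.14 and -3.66). Both of these promoters held the composite core. An intergenic site of low complexity with an AP-1 core, nearest to the TSS of *LVRN*, had 114 and 9.4. The *SIAH2* promoter, of a ubiquitin ligase, had 110 and 9.4 (log2 ratio -3.54). At these 5 sites the knockout peak had a score of 11 to 14, just over its threshold, so that a strong ATF3-Ctrl site was counted as shared with a weak one.

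Peaks with a repeat mark made up most of the shared distal peaks. The mark rests on position and sequence, and no repeat annotation was used. Peaks were marked, after values had been seen, when they lay within 1 Mb of a run of at least 1000000 unsequenced bases (centromeres and other assembly gaps), when their sequence was of low complexity, or when at least 0.25 of their 12-base words occurred in the mitochondrial genome. Of the 25002 distal ATF3-Ctrl peaks, 1192 bore a mark, and 384 of these (32.2%, 29.6% to 34.9%) were shared, against 252 of the 23810 without a mark (1.06%, 0.936% to 1.20%). At a score of 50 or more the shares were 53.4% (95 of 178) and 4.49% (41 of 914). Near the long runs 251 of 777 peaks (32.3%) were shared, and of low complexity 216 of 670 (32.2%).

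The 5 highest-scoring shared peaks all lay beside centromeric gaps, on chromosomes 1, 7, 10 and 19. The highest, chr1:121485112-121485238, had a score of 308 in ATF3-Ctrl against 441 in ATF3-KO, and normalized tag counts of 4300.4 and 4720.6 (log2 ratio 0.13, 0.08 to 0.19). At chr7:61969226-61969352 the counts were 683 and 861.1 (log2 ratio 0.33). At chr19:27732012-27732138 they were 1140.0 and 980.5 (log2 ratio -0.22). The deposited counts at these sites were thus high and near equal in both lists, with no correction for the wider ATF3-KO peaks. The pair on chromosome 10 had 810 against 606.8 and 693 against 645.8.

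The overlap rule of 1 bp left some sites of this kind in the ATF3-Ctrl only class. Its highest-scoring peak, chr1:121484752-121484878, with a score of 259 and a count of 1270.5, lay 216 bp from an ATF3-KO peak. The next of these, chr7:61968948-61969074, lay 192 bp from a knockout peak, and chr10:42385504-42385630 lay 190 bp from another, with scores of 237 and 222. The others were the mitochondrial peaks chrM:103-229 (score 240) and chrM:16044-16170 (score 226), and the knockout list held no peak on the mitochondrial sequence. In all, 205 ATF3-Ctrl only peaks (0.638%) came within 200 bp of an ATF3-KO peak and 567 (1.76%) within 1000 bp.

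Farther than 10000 bp from any ATF3-KO peak, the highest-scoring ATF3-Ctrl only peaks, also listed after values had been seen, were mostly sites with a composite core. *STK40*, which encodes a kinase-like protein, had a score of 194 and a count of 356 (324 to 390), and the *ATF3* promoter 189 and 314 (284 to 346). The *FGFRL1* site had a score of 180, an intron of *CTBP2*, a corepressor gene, 177, a site 44608 bp from *TEX43* 174 and the promoter of *HERPUD1*, an endoplasmic reticulum stress gene, 168. Each of these 6 held TGATGCAA. The other 4 of the 10 were an exonic site of *UBE2H* (179) and 3 adjacent peaks beside the centromere of chromosome 6 (182 to 188), with none of the cores.

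Of the 43 shared sites whose interval lay above 0, 24 were in sequence like that of the mitochondrial genome, as nuclear copies of mitochondrial DNA are. Of 36 such ATF3-Ctrl peaks, 29 (80.6%, 65.0% to 90.2%) were shared, and the other 7 lay 85 to 2185 bp from an ATF3-KO peak. The median count at the 29 was 22.4 in ATF3-Ctrl and 46.8 in ATF3-KO. The median log2 ratio was 1.33, with a lowest value of 0.12 and a highest of 2.47. All 29 had the higher count in ATF3-KO, where peaks were also wider. The 5 highest ratios of all shared peaks with an ATF3-Ctrl score of at least 20 were among them, led by chr11:10531007-10531133 near *RNF141* with 27.0 in ATF3-Ctrl and 149.8 in ATF3-KO (log2 ratio 2.47, 1.94 to 3.03). The copy at chr1:567516-567642, with a share of 1.00 of its 12-base words in the mitochondrial genome, had 178 and 440.7 (log2 ratio 1.30). The ATF3-Ctrl list had 2 peaks on the mitochondrial sequence itself and the ATF3-KO list none, and the amount of mitochondrial DNA in each library was not measured.

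Among chromosomes, Y stood apart, with 45 of 110 ATF3-Ctrl peaks shared (40.9%, 32.2% to 50.3%), 44 of them distal. Chromosome 16 followed with 130 of 1325 (9.81%), 19 with 8.03% and 21 with 7.87%, and the lowest were 6 with 2.94% (2.26% to 3.81%) and X with 2.99%. Promoter shares ranged from 10.6% on chromosome 5 to 17.7% on chromosome 16 (14.4% to 21.5%), apart from Y with 1 of 2 and X with 5 of 129 (3.88%, 1.67% to 8.75%). Distal shares ranged from 0.717% on chromosome 15 to 5.93% on chromosome 21, apart from Y with 40.7%. Peaks on sequences other than the main chromosomes and the mitochondrial genome were shared in 66 of 283 cases (23.3%).

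**Figure D4:**
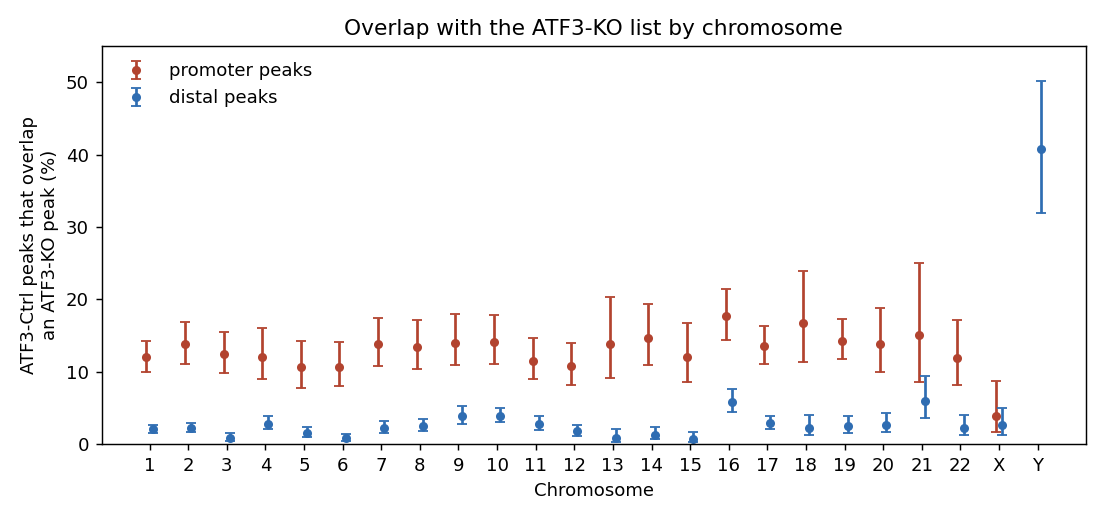
The horizontal axis gives the chromosome and the vertical axis the percentage of ATF3-Ctrl peaks that overlapped an ATF3-KO peak, with 95% Wilson intervals, for promoter and distal peaks (the 2 promoter peaks of chromosome Y are not drawn). Distal peaks of Y stood at 40.7%, above every other point, and promoter peaks of X at 3.88%, below the other promoter points.

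The 403 ATF3-KO only peaks were mostly weak and rarely held a bZIP core. Their median score was 12, just over the threshold of 11, against 16.0 for the shared peaks of the same list, and the share of knockout peaks that were shared rose from 60.2% at a score of 11 to 97.8% (352 of 360) at 20 to 29. An AP-1 core was present in 1 of 143 promoter peaks (0.699%) and 6 of 243 distal peaks (2.47%), no more than in the windows beside them (1.75% and 3.70%). Low complexity marked 107 of the 386 on main chromosomes (27.7%), and 92 of the 403 (22.8%) lay within 200 bp of an ATF3-Ctrl peak.

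The strongest of these lay far from any TSS of a protein-coding gene or on unplaced contigs. The highest, chr10:42400364-42400562, with a score of 180 and a count of 490, lay 14 bp from an ATF3-Ctrl peak, and the next were chr2:92269400-92269598 (score 82) and chr2:92290697-92290895 (score 76), within 228 bp and 97 bp of an ATF3-Ctrl peak. The other two of the highest 5 were on unplaced contigs, with scores of 74 and 45. Among promoters, a list drawn after values had been seen, the highest were *EPRS1*, a tRNA synthetase gene, with a score of 28, *CDC73*, of the PAF1 complex, with 18, and *EIF4B*, a translation initiation factor gene, with 17. These lay 149, 40 and 13 bp from an ATF3-Ctrl peak. Chromosome 17 held 53 of the 403 (13.2%) but 6.06% of the ATF3-Ctrl peaks, and 43 of the 53 lay beyond 40 Mb, against 62.9% of the ATF3-Ctrl peaks of that chromosome. The copy number of chromosome 17 in each line was not measured here.

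A further ATF3 library, from HCT116 cells given camptothecin (ATF3-CPT, 70702 peaks), was not used to define the classes. An ATF3-CPT peak overlapped 25450 of the ATF3-Ctrl only peaks (79.2%, 78.7% to 79.6%), 1654 of the 1829 shared peaks (90.4%, 89.0% to 91.7%) and 146 of the ATF3-KO only peaks (36.2%, 31.7% to 41.0%). For ATF3-Ctrl only peaks the share rose with the score, from 61.9% at 9 to 10 to 95% at 20 to 29 and 97.8% at 100 or more. At a score of 20 to 29 shared peaks stood at 95.9%, so at that score the intervals of these classes overlapped. At a score of 15 to 19, shared distal peaks were found again in 64.8% (54.6% to 73.9%) and ATF3-Ctrl only distal peaks in 88.7% (87.7% to 89.6%), while shared promoter peaks reached 95.3%. At 11 to 14 these distal shares were 53.3% and 75.9%, and in the other score bands their intervals overlapped. Over all scores the distal shares were level, with 80% (76.7% to 83%) of shared and 79.5% of ATF3-Ctrl only peaks. Split by repeat mark over all scores, shared peaks were found again more often, but scores were not matched in that split. Distal peaks without a mark were found again in 87.3% of shared and 80.5% of ATF3-Ctrl only cases. For peaks with a mark, promoter peaks included, the shares were 76.0% and 52.9%.

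A p53 antibody in p53-knockout cells that had received DMSO gave the other background list of the series, with 7879 peaks but 1984941 tags, so that a single tag counted 5.04. A peak of that list overlapped 150 of the 636 shared distal peaks (23.6%, 20.5% to 27.0%) and 6 of the 1127 shared promoter peaks (0.532%, 0.244% to 1.16%). Of ATF3-Ctrl only peaks it overlapped 0.349%. Among shared peaks with a repeat mark the share was 30.8% (123 of 400) and without a mark 2.42% (33 of 1363). Peaks with a knockout count of at least 30 were then taken. Among these, 73 of 143 marked distal peaks (51.0%, 42.9% to 59.1%) and 10 of 18 unmarked distal peaks (55.6%, 33.7% to 75.4%) recurred. Of the promoter peaks, 2 of 58 (3.45%, 0.951% to 11.7%) did. This floor did not match the levels, as shared promoter peaks reached a knockout count of 94.4 and shared distal peaks 4720.6. Recurrence of shared distal peaks was 39.1% at a knockout score of 30 to 49 and 62.1% at 100 or more. The depth of that library was far lower, and the part of depth and of the antibody in these shares cannot be told apart.

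Promoters of gene groups were compared next, with a gene counted when a peak was centred within 2 kb of its TSS. Of 20136 protein-coding genes, 7921 (39.3%) had an ATF3-Ctrl promoter peak, 6870 (34.1%) had such a peak free of ATF3-KO peaks, 1557 (7.73%) had an ATF3-KO promoter peak, and 438 (2.18%) had both of the latter. The median over genes of the highest free score was 13.0. These shares are the background for each list, and the lists share no test.

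The integrated stress response, the program of ATF4 and its targets in amino acid and endoplasmic reticulum stress, had the highest scores. Of its 21 genes, 18 (85.7%, 65.4% to 95%) had a free ATF3-Ctrl peak with a median score of 59.0. *HERPUD1* had a count of 303 (274 to 334). *CHAC1*, which degrades glutathione, had 194, *SLC7A11*, the cystine transporter, 208, and *CEBPB*, a C/EBP family member, 120. All 4 peaks held the composite core, and none of these genes had an ATF3-KO promoter peak. The knockout peak of this list was at *SLC3A2*, with a score of 11, at another start site than its ATF3-Ctrl peak.

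The genes of the bZIP families themselves were also covered. Of 17 ATF/CREB genes, 10 (58.8%) had a free peak, led by *ATF3* (count 314), *CREB5* (55.6) and *JDP2* (42.5), and 2 had an ATF3-KO peak, *CREB3* (13.3 in ATF3-KO, 13.1 in ATF3-Ctrl) and *CREM* (9.40 and 19.3). Of 13 AP-1 subunit genes, 8 had a free peak, led by *JUND* (47.1), *JUN* (30.9) and *MAFF* (30.9), with the ATF/CRE core at *JUND* and *MAFF*. The AP-1 subunit genes with a knockout peak were *MAFG* (13.3 against 28.6), *FOSB* (9.40 against 8.5) and *FOSL1* (7.80 against 9.30).

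At *ATF3*, 9 ATF3-Ctrl peaks lay within 60 kb of its start sites, with scores of 12 to 189, and the nearest ATF3-KO peak was 2690496 bp away. The strongest, printed above, sat 21 bp upstream of a TSS. The next, chr1:212732358-212732484, upstream of the first start, had a score of 47 and a count of 39.4 and held both an AP-1 and the ATF/CRE core. The rest had counts of 9.30 to 18.5.

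Among p53 response genes, 18 of 23 (78.3%) had a free peak, led by *GADD45A* (count 85.0) and *PLK3* (78.0), and 3 had a knockout peak in place of one. At *FDXR*, the ferredoxin reductase gene, the shared peak had 55.6 in ATF3-Ctrl and 17.2 in ATF3-KO (log2 ratio -1.69, -2.46 to -0.99). At *BAX*, a cell death effector, the counts were 12.4 and 9.40, and at *PPM1D*, a phosphatase, 10.8 and 8.6, both within counting error.

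No ATF3-KO promoter peak was listed for the 18 genes of MAPK feedback and EGFR ligands, the 16 immediate early genes, the 14 epithelial adhesion genes, the 13 heat shock genes or the 65 replication-dependent histone genes. Of all protein-coding genes 7.73% had such a peak, so a list of 13 to 18 genes may well hold none at that share. Free ATF3-Ctrl peaks were present at 13, 11, 12, 8 and 35 of them. These were 72.2%, 68.8%, 85.7%, 61.5% and 53.8% of the lists, against 34.1% of all genes. The highest were *SPRED2* (53.3) and *DUSP1* (45.6), inhibitors of MAP kinase signalling, *KLF6* (55.6), a zinc finger factor, *CLDN4* (31.7), a tight junction protein, *DNAJB1* (29.3), a chaperone, and *H4C14* (37.1). Some histone genes are near-identical copies, so that tags may have been split among those.

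The list with the highest share of knockout promoters was that of ribosomal proteins. Of 86 genes, 24 (27.9%) had an ATF3-KO promoter peak, against 7.73% of all genes, and 36 (41.9%) a free ATF3-Ctrl peak. At *RPL18* the counts were 46.8 (35.7 to 60.2) in ATF3-KO and 57.2 in ATF3-Ctrl, with a log2 ratio of -0.29 (-0.80 to 0.22), which is within counting error. At *RPLP2* they were 21.1 and 56.4 (-1.42, -2.11 to -0.77). Of 20 abundant housekeeping genes, 16 had a free peak and 3 a knockout peak, *PKM*, *LDHA* and *NCL*, with scores of 11 to 12. Of 16 genes of other tissues, such as liver and brain, 1 had a free peak, *APOA1* at the lowest score of 9, and none a knockout peak.

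**Figure D5:**
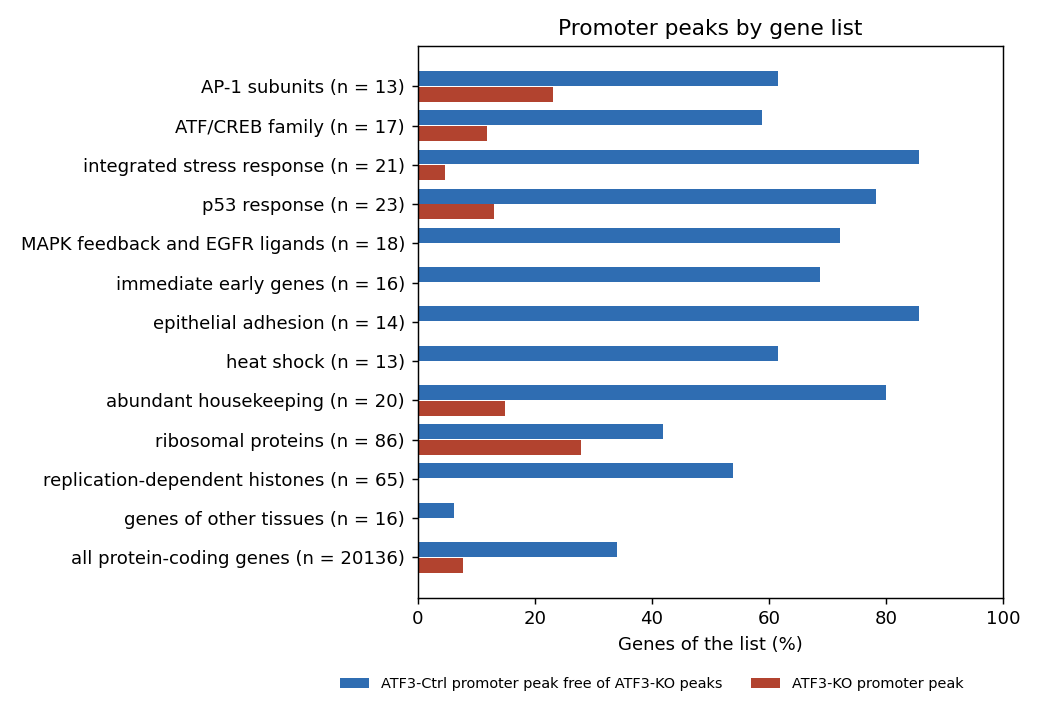
Bars give the percentage of genes in each list with an ATF3-Ctrl promoter peak free of ATF3-KO peaks and with an ATF3-KO promoter peak, from 0 to 100% on the horizontal axis (1 library each). Ribosomal protein genes had the longest ATF3-KO bar (27.9%, against 7.73% of all genes), and the integrated stress response and epithelial adhesion lists had a free peak at 85.7%.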

How the data were processed

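Members and lists were chosen with earlier results of these data known. ChIP-seq peak lists were taken as deposited. The authors aligned reads to hg19 with BWA (0.6.1 in the submitters' processing notes) and called peaks per library with HOMER (4.1), without input, at a false discovery rate of 0.001 and a 4-fold enrichment over 10000 bp per the file headers. The normalized tag count, as deposited, is a signal per 10000000 tags, and the deposited score is a number of tags. The focus ratio is a fraction computed by the authors, and their fold enrichments, which are ratios in the deposited lists, and p-values were used in no result given here.

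Overlap required 1 bp. TSS came from GENCODE release 44 on GRCh37. Low complexity meant that distinct 6-base words were below 0.5 of all words in 300 bp. Sites named were the 5 highest of each class, the 5 extreme ratios, the up to 4 highest of each gene list and the 10 highest ATF3-KO promoters. Shares have 95% Wilson intervals, counts exact Poisson and ratios Clopper-Pearson intervals, for counting error only. Scripts (Python, NumPy, SciPy) were tested on simulated data. Motif discovery was not run, and a few named genes are not reported here.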

Additional observations from a re-analysis of the deposited data

How the results depend on the processing

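Of 36 alternatives to 16 results, 19 left the count within 1.5 times or the value within its 95% interval. A score of at least 20 in both lists left 8559 of 9190 ATF3-Ctrl peaks (93.1%) without an ATF3-KO peak, and 630 of 707 ATF3-KO peaks (89.1%) shared. Scaling the score by library tags in place of the normalized tag count gave a median log2 ratio of -0.53. Promoters of 1 kb held 20.4% of ATF3-Ctrl only peaks, and the TSS of genes of every type put 31.5% of these, 70.1% of shared and 48.2% of ATF3-KO only peaks in promoters. An AP-1 or ATF/CRE core was present in 36.7% of ATF3-Ctrl only peaks in 200 bp windows, and with a score of at least 20 in 45.5% of these, 15.6% of shared and 0 of ATF3-KO only peaks. The median focus ratio at such scores was 0.836 in ATF3-Ctrl only and 0.846 in shared peaks. With centres within 500 bp, 84.8% and 94.7% of these classes were found again after camptothecin, and with a score of at least 20 in both ATF3 lists 90.5% of ATF3-Ctrl only peaks. At that score 1550 genes had a free promoter peak. The cause of each move was not tested. No paired analysis was possible because each condition had 1 library. Sites scoring under 9 in ATF3-Ctrl and under 11 in ATF3-KO were not listed.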
